A study of Mus musculus with 40 samples.

Results

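The miR-379 to miR-410 cluster is a run of miRNA hairpins in the imprinted Dlk1-Dio3 region of mouse chromosome 12, where the long noncoding RNA Mirg spans its distal end. Its members were taken as every mature miRNA that the deposited counts assign to 39 listed hairpins, from mmu-mir-379 to mmu-mir-410 and including mmu-mir-3072 just beyond it, which gave 77 mature arms out of 1978 mature miRNAs in all. A hairpin is cut into a 5p and a 3p arm, either of which can be loaded into the silencing complex, and the bases at positions 2 to 8 of the loaded arm, the seed, pair with target mRNAs. In placental mammals the cluster is transcribed from the maternally inherited chromosome as a long transcript. It is best known from the brain, where neuronal activity raises its transcription and where miR-134 and other members are known to act on dendrites and synapses.

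Small RNA was sequenced from the hippocampal CA1 region of 40 mice on a C57Bl/6J background, with 1 library per mouse. The model of heart failure was the CamKIIδC TG mouse, in which the δC form of calcium/calmodulin-dependent protein kinase II is overexpressed, and wild-type (WT) littermates were the controls. The promoter of the transgene is not given in the sources used here. The groups were 9 TG and 5 WT mice at 3 months of age and 11 TG and 15 WT mice at 6 months of age. Both sexes were used, and the labels do not give the sex of a mouse. The title of 3-month-old WT mice 1 and 2 says wild-type and their genotype field says TG, and the title was used here.

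miRNA counts per library ranged from 1926108 to 22892729. Their median was 18431486 in TG and 14340558 in WT mice at 3 months, and it was lower at 6 months, 9239179 and 9893109. Age and sequencing depth therefore moved together, and the part of depth in the age differences was not tested. All 6 neuronal marker miRNAs, such as miR-124-3p and miR-9-5p, were detected, with a summed level of 166000 to 363000 CPM (counts scaled to the library total) over the 40 mice. TG 3-month-old mouse 8 and WT 3-month-old mice 1 and 5 stood apart from the other 3-month-old mice in several of the arms described here, and their miRNA counts of 8888162, 8215532 and 9371603 were among the lowest of that age.

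All 39 hairpins were matched by name to GENCODE M21, which is on GRCm38, the assembly also called mm10 that the authors used. mmu-mir-379 lies at chr12:109709060-109709125 and mmu-mir-410 at chr12:109743715-109743795, so that the run is 34.7 kb long. Of the hairpins, 38 lie on the plus strand, and mmu-mir-299b is on the minus strand, opposite mmu-mir-299a. From mmu-mir-382 on, 14 hairpins lie within Mirg (chr12:109729764-109749460), 9 of them overlapping an annotated exon and 5 in introns. The other 25 lie in no longer annotated gene.

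The mature sequences below are those of the arms that differed between ages in TG mice, of the 3 most abundant arms and of close relatives of these, each written 5′ to 3′ with the seed in capitals. They were taken from RefSeq (GRCm38.p6), which matched 73 of the 77 arms by name.
miR-495-3p: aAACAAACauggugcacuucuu
miR-758-3p: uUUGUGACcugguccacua
miR-369-5p: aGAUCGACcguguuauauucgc
miR-543-3p: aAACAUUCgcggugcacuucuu
miR-380-3p: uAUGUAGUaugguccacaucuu
miR-382-5p: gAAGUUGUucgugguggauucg
miR-382-3p: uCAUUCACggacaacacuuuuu
miR-299a-3p: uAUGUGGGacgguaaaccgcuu
miR-299b-3p: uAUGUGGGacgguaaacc
miR-381-3p: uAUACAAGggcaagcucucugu
miR-300-3p: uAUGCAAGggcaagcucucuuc
miR-379-5p: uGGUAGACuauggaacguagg
miR-541-5p: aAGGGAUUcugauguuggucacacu
miR-369-3p: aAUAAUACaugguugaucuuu

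The 73 sequences held 66 distinct seeds. Only 7 seeds were shared by members, each by 2 arms, such as GGUAGAC in miR-379-5p and miR-1193-5p, AUGUAAC in miR-379-3p and miR-411-3p and AUGUGGG in miR-299a-3p and miR-299b-3p. miR-299b-3p equals the first 18 bases of miR-299a-3p, so reads of both cannot be told apart with certainty. miR-381-3p and miR-300-3p differed at 3 of 22 bases, and miR-376b-5p and miR-376c-5p at 1 of 22. Some letters recurred among members with different seeds. GGU at bases 2 to 4 was found in 14 of 37 member 5p arms (37.8%), against 3.59% of all 697 5p arms of the table, and ACANGGU, on the arm's own strand, in 7 of 35 member 3p arms (20%), against 1.41% of all 709 3p arms. U as the first base was found in 42.5% of member arms and 40.9% of all arms.

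The members differed widely in level. Over all mice, 7 arms had a mean over 1000 CPM, 21 lay between 100 and 1000, 14 between 10 and 100, and 35 at or below 10. miR-381-3p averaged 18600 CPM ± 11500 (SD, n = 40), ranked 13 among the 1978 mature miRNAs and held 35.0% of all counts of the cluster. miR-379-5p averaged 6770 CPM ± 4100 (SD, n = 40) and miR-541-5p 4270 CPM ± 1580 (SD, n = 40). Together these 3 arms held 57.7% of the counts of the cluster, and the 10 most abundant arms held 83.5%. The remaining 7 of these 10 were miR-300-3p, miR-409-3p, miR-543-3p, miR-411-5p, miR-382-5p, miR-485-5p and miR-485-3p, with means from 757 to 2180 CPM. At the low end, miR-299b-5p, miR-453 and miR-654-5p had no count in any library, and 6 further arms had at most 100 counts over all 40 libraries. Levels did not follow the order along the chromosome, and abundant and rare arms came from neighbouring hairpins.

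**Figure D1:**
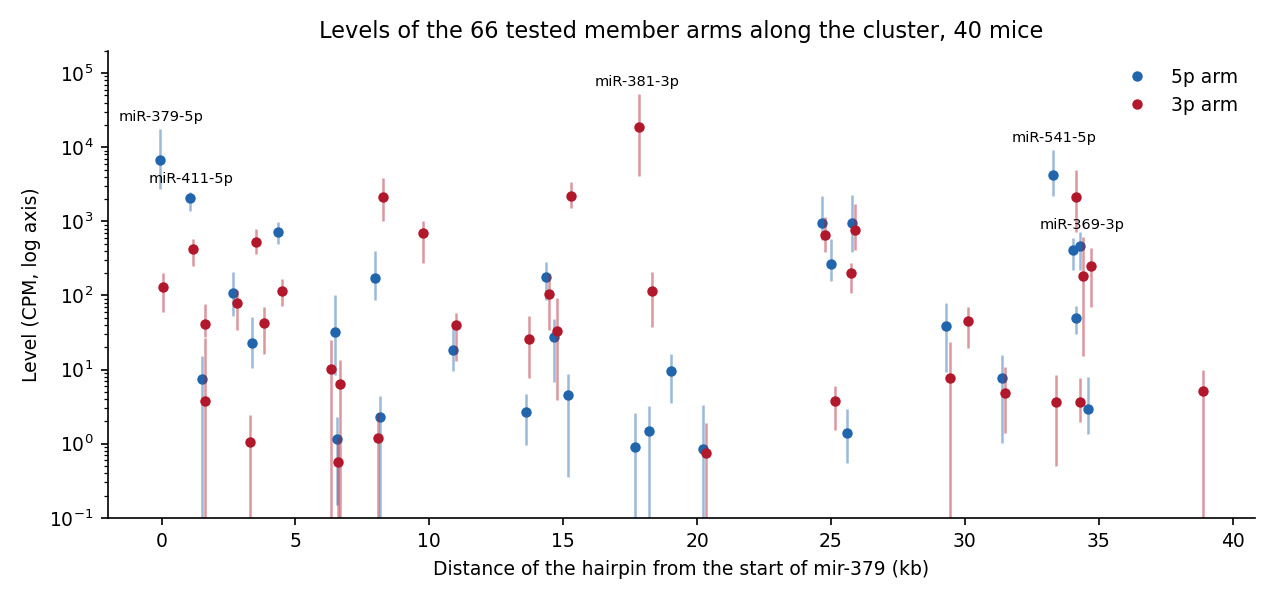
Mean level of the 66 member arms tested in at least 1 comparison (points; CPM on a log axis) against the distance of their hairpin from the start of mir-379 in kb, with lines from the lowest to the highest of 40 mice, cut off at the bottom of the axis where the lowest lay below it. miR-381-3p stands highest at 18600 CPM, and arms of neighbouring hairpins differ by orders of magnitude.

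The share of miRNA counts that the cluster as a whole took overlapped between all groups. In WT mice at 3 months the share was 4.94%, 3.16%, 3.92%, 3.91% and 4.47% in mice 1 to 5. In TG mice at 3 months the share ranged from 3.16% to 5.11% with a median of 3.71%. At 6 months the range was 3.75% to 6.12% with a median of 4.53% in WT mice, and 3.91% to 5.39% with a median of 4.37% in TG mice. The means at 3 months were 4.08% ± 0.67 (SD, n = 5) in WT and 4.15% ± 0.864 (SD, n = 9) in TG mice. At 6 months they were higher, 4.73% ± 0.817 (SD, n = 15) in WT and 4.46% ± 0.549 (SD, n = 11) in TG mice. The cluster without miR-381-3p, miR-379-5p and miR-541-5p was not higher at 6 months. Its median share was 1.88% in WT and 1.76% in TG mice at 3 months, and 1.82% and 1.70% at 6 months. All groups overlapped, and the difference in share was not tested. A share cannot tell fewer cells that express the cluster from less of it per cell.

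Between 3 and 6 months of age in TG mice, 5 member arms rose and 3 fell out of 64 tested. miR-495-3p rose most, 2.02-fold, followed by miR-758-3p, miR-369-5p, miR-543-3p and miR-380-3p, while both arms of mmu-mir-382 and miR-299a-3p fell. These calls used an adjusted p under 0.05 and an absolute log2 fold change (log2FC) over 0.26, with edgeR's quasi-likelihood test and Benjamini-Hochberg adjustment over all miRNAs tested. The 8 calls are 12.5% of the tested members, near the 15.7% called among all 629 miRNAs tested in that comparison (7.47% higher and 8.27% lower at 6 months). By the same test 10 of 42 spike-in oligos, which no mouse makes, were called in that comparison too, and what part of the member calls is technical was not tested. At an unadjusted p under 0.05 there were 14 member arms, against 32.4% of all miRNAs. The median log2FC was 0.06 over the members and -0.09 over all miRNAs. With 1 and 2 estimated factors of unwanted variation (RUVr) DESeq2 called 27 member arms (13 up, 14 down) and 29 (13 up, 16 down), with 48.5% and 51% of all miRNAs called, and edgeR with 1 factor from the spike-in oligos called 20 (15 up, 5 down), with 34% called. Groups overlapped for every tested member arm, and for all but 0.477% of the miRNAs tested.

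miR-495-3p lay between 275 and 761 CPM in TG mice at 3 months, with a median of 374, and between 672.9 and 934 CPM at 6 months, with a median of 829. The 6-month-old mice were higher, and the groups overlapped through a single 3-month-old mouse, mouse 8, which had the 761 CPM. The log2FC was 1.01 ± 0.16 (SE; n = 11 and 9; edgeR adjusted p = 0.000292), and all 11 mice at 6 months were above the mean at 3 months. In WT mice at 3 months miR-495-3p stood at 699, 385, 383, 429 and 800 CPM in mice 1 to 5, and at 6 months between 562 and 1000 CPM with a median of 873. Mice 1 and 5 were thus in the range of the 6-month-old mice and the other 3 were not. The log2FC in WT mice was 0.63 ± 0.19 (SE; n = 15 and 5), with an edgeR adjusted p of 0.179.

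miR-758-3p and miR-369-5p showed the same arrangement. miR-758-3p lay between 16.1 and 52.4 CPM in TG mice at 3 months, with a median of 21.8, and between 38.1 and 70.0 at 6 months, with a median of 49.6 (log2FC 0.99 ± 0.19 SE, edgeR adjusted p = 0.0013). Mouse 8 had the highest level at 3 months and was the 1 mouse of that age within the range at 6 months. In WT mice at 3 months miR-758-3p was at 64.6, 18.0, 24.3, 23.7 and 59.0 CPM, with mice 1 and 5 high again, and at 6 months it ranged from 34.2 to 70.5 CPM with a median of 44.6 (log2FC 0.31 ± 0.25 SE, edgeR adjusted p = 0.567). miR-369-5p lay between 222 and 497 CPM in TG mice at 3 months, with a median of 280, and between 411 and 677 CPM at 6 months, with a median of 539 (log2FC 0.80 ± 0.15 SE, edgeR adjusted p = 0.00103). In the WT mice it had 549, 334, 276, 294 and 672.6 CPM at 3 months and between 361 and 719 CPM, with a median of 529, at 6 months (log2FC 0.31 ± 0.20 SE, edgeR adjusted p = 0.482). For these 3 arms the only 3-month-old mice inside the 6-month range of their genotype were TG mouse 8 and WT mice 1 and 5.

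miR-543-3p, among the 10 most abundant arms, lay between 998 and 2580 CPM in TG mice at 3 months with a median of 1220, and between 1840 and 3400 CPM at 6 months with a median of 2250. The groups overlapped in 2 of the 3-month-old mice, and the log2FC was 0.75 ± 0.18 (SE; edgeR adjusted p = 0.00728). In WT mice its levels at 3 months were 2630, 1290, 1340, 1410 and 2520 CPM and its log2FC was 0.33 ± 0.21 (SE; edgeR adjusted p = 0.481). miR-380-3p overlapped more: 6 of the 9 TG mice at 3 months were within the range at 6 months, with medians of 58.4 CPM at 3 and 94.8 CPM at 6 months and a log2FC of 0.61 ± 0.18 (SE; edgeR adjusted p = 0.021). Its call was lost without TG 6-month-old mouse 11, and its log2FC in WT mice was 0.31 ± 0.25 (SE; edgeR adjusted p = 0.573).

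Both arms of mmu-mir-382, the first hairpin inside Mirg, were lower at 6 months. miR-382-5p lay between 794 and 2220 CPM in TG mice at 3 months, with a median of 1160, and between 591 and 1070 CPM at 6 months, with a median of 788 (log2FC -0.63 ± 0.16 SE, edgeR adjusted p = 0.00955). miR-382-3p lay between 629 and 1010 CPM at 3 months, with a median of 880, and between 456 and 775 CPM at 6 months, with a median of 550 (log2FC -0.48 ± 0.13 SE, edgeR adjusted p = 0.0146). All 11 TG mice at 6 months were below the 3-month mean of each arm, and 6 of the 11 were below every 3-month-old mouse. In WT mice miR-382-5p was at 820, 1150, 1150, 1360 and 961 CPM at 3 months, and between 557 and 1050 CPM with a median of 773 at 6 months. Its log2FC was -0.48 ± 0.16 (SE; edgeR adjusted p = 0.199). miR-382-3p was at 519, 800, 1050, 1150 and 443 CPM in those 3-month-old mice, with mice 1 and 5 low, and its log2FC was -0.56 ± 0.18 (SE; edgeR adjusted p = 0.199). All 15 WT mice at 6 months were below the 3-month mean of each arm.

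miR-299a-3p, the last call, had a median of 51.0 CPM at 3 and 35.5 CPM at 6 months in TG mice, with a log2FC of -0.42 ± 0.14 (SE; edgeR adjusted p = 0.0458). The groups overlapped in 4 of the 3-month-old mice. This call was lost in 19 of the 35 other fits, among them those without any 1 of 14 of the 20 TG mice. In WT mice the log2FC was -0.08 ± 0.20 (SE; edgeR adjusted p = 0.877).

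**Figure D2:**
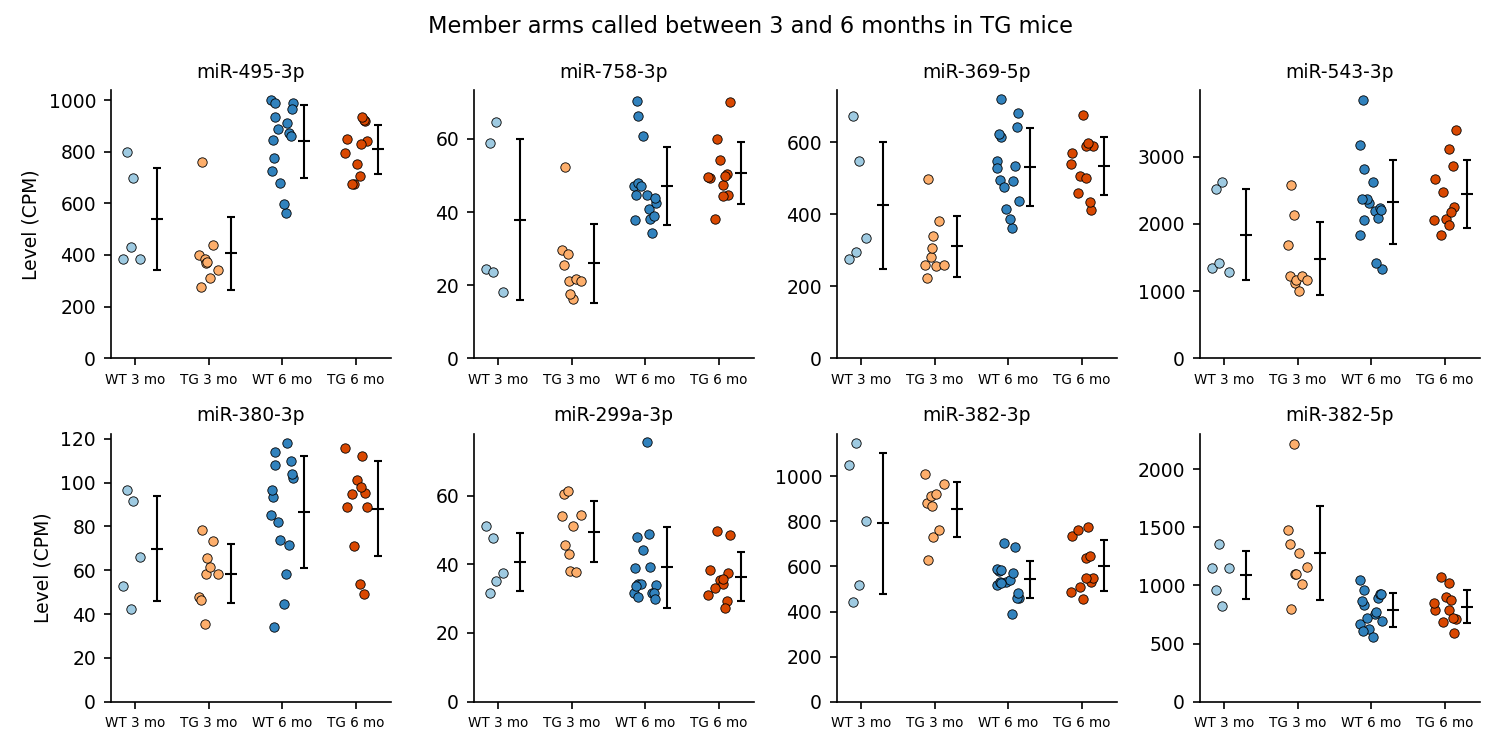
Levels of the 8 member arms called between 3 and 6 months in TG mice, in CPM, with 1 point per mouse and the mean ± SD of each group beside it (n = 5, 9, 15 and 11 from left to right). In miR-495-3p, miR-758-3p and miR-369-5p, 1 TG and 2 WT mice of 3 months sit among the 6-month-old mice.

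In WT mice, 0 of 66 tested member arms were called between ages, where 0.152% of all 660 miRNAs were called. At an unadjusted p under 0.05 there were 8 member arms (15.5% of all miRNAs). DESeq2 called 3 (3.79% of all miRNAs) and, with 1 and 2 RUVr factors, 24 (29.2%) and 27 (32.1%). Without 3-month-old mouse 5 edgeR called 1, miR-495-3p, and the share of all miRNAs called in that fit is not given here. The largest differences among members with a mean of at least 10 CPM were those of miR-381-3p (log2FC 0.92 ± 0.41 SE, edgeR adjusted p = 0.305), miR-679-5p (log2FC 0.79 ± 0.47 SE, edgeR adjusted p = 0.418) and miR-495-3p on the positive side, and of miR-369-3p (log2FC -0.79 ± 0.52 SE, edgeR adjusted p = 0.497) and the arms of mmu-mir-382 on the negative side. All 8 arms called in TG mice had the same sign in WT mice, as did all 99 called miRNAs of the whole comparison. Across the 64 arms tested in both genotypes, which share no mouse between them, the log2FC values had a Pearson r of 0.73 and 54 had the same sign, against 0.78 and 513 of 628 over all miRNAs. These are descriptions over arms, which are not independent.

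Whether the age difference itself depended on genotype was tested as an interaction over the 4 groups. No member arm of 66 was called by edgeR or DESeq2, with 0% of all 699 miRNAs called by edgeR. At an unadjusted p under 0.05 there was 1 member arm, miR-758-3p (interaction log2FC 0.66 ± 0.30 SE, edgeR adjusted p = 0.986), against 2% of all miRNAs. The calls in TG mice were thus not shown to differ from the changes in WT mice, and 5 WT mice at 3 months limit that test.

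**Figure D3:**
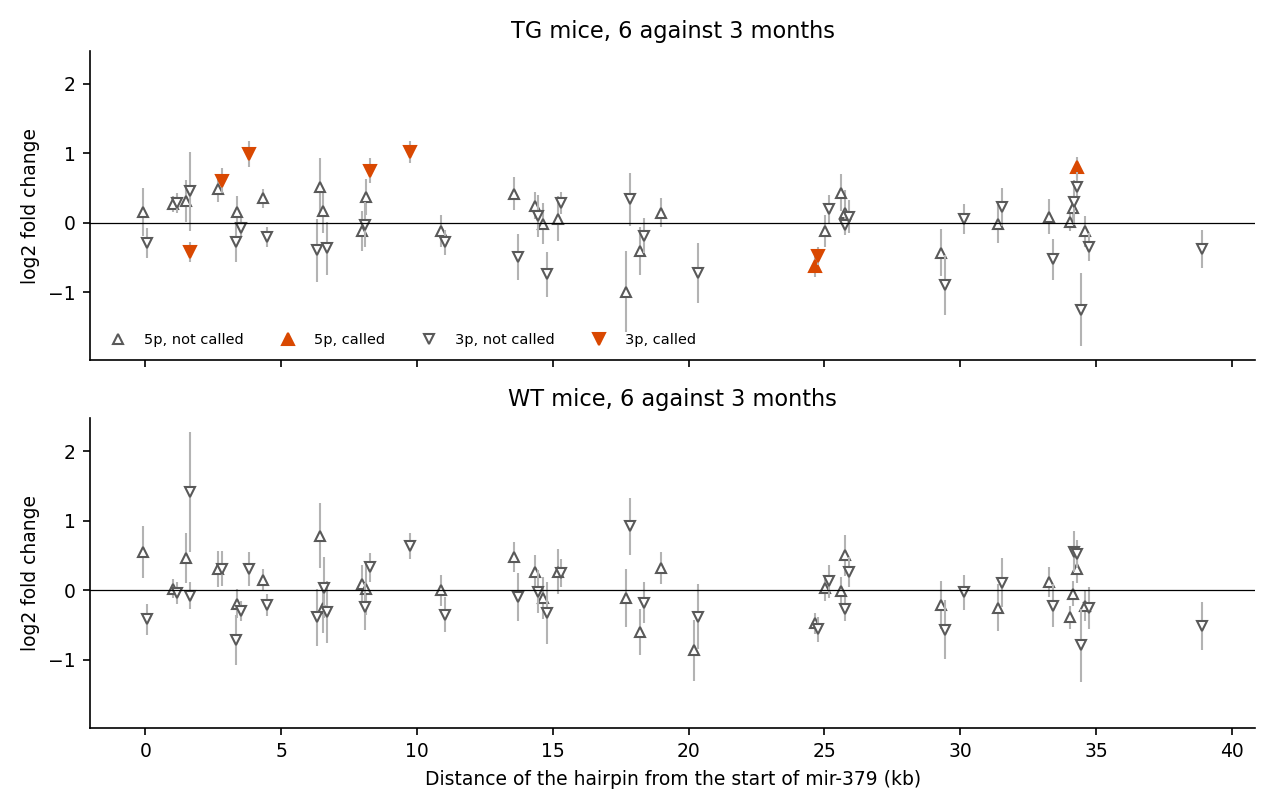
Log2 fold change of 6 against 3 months for each tested member arm (64 in TG, 66 in WT mice), with bars of 1 standard error, against the distance of its hairpin from the start of mir-379 in kb. The 8 called arms, filled, are all in TG mice, and the 3 that fell come from mir-299a and mir-382.

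Between TG and WT mice of the same age no member was called, other than with RUVr factors. At 3 months 0 of 66 tested arms were called by edgeR or DESeq2 (0% of 695 miRNAs in edgeR), and 0 had an unadjusted p under 0.05 (1.01% of all miRNAs). The largest differences at 3 months among members with a mean of at least 10 CPM were negative for miR-758-3p (log2FC -0.59 ± 0.33 SE), miR-369-5p (log2FC -0.49 ± 0.25 SE) and miR-495-3p (log2FC -0.45 ± 0.25 SE), and positive for miR-379-5p (log2FC 0.57 ± 0.39 SE), miR-376a-3p (log2FC 0.47 ± 0.47 SE) and miR-679-5p (log2FC 0.38 ± 0.49 SE), with an edgeR adjusted p of 0.998 for each. At 6 months 0 of 63 tested arms were called by either tool (0% of 612 miRNAs in edgeR), and 1 had an unadjusted p under 0.05 (0.49% of all miRNAs). DESeq2 with 1 and 2 RUVr factors called 1 and 8 arms at 3 months (0.144% and 7.77% of all miRNAs) and 1 and 2 arms at 6 months (0.654% and 1.31%), and miR-379-5p was among them each time. The arm with the low unadjusted p at 6 months was miR-410-5p, named because of its p, with 3.22 CPM in TG and 2.40 CPM in WT mice (log2FC 0.39 ± 0.17 SE, edgeR adjusted p = 0.992). The more abundant members with the largest differences at 6 months were miR-379-5p (log2FC 0.20 ± 0.30 SE), miR-380-5p (log2FC 0.20 ± 0.20 SE), miR-323-3p (log2FC 0.16 ± 0.10 SE), miR-369-3p (log2FC -0.32 ± 0.43 SE), miR-539-5p (log2FC -0.27 ± 0.18 SE) and miR-154-5p (log2FC -0.24 ± 0.25 SE).

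The members best known from neurons were not called in the main edgeR fit of any comparison. Of 35 other fits between ages in TG mice, 2 called miR-381-3p, 1 called miR-134-5p, and 0 called miR-329-3p or miR-485-5p. In WT mice 3 of 21 other fits called miR-381-3p. miR-134-5p, which limits the size of dendritic spines, had a median of 223 CPM at 3 and 256 CPM at 6 months in TG mice (log2FC -0.12 ± 0.23 SE, edgeR adjusted p = 0.731). miR-329-3p, a regulator of activity-dependent dendrite growth, had medians of 129 and 106 CPM (log2FC -0.20 ± 0.14 SE, edgeR adjusted p = 0.318). For miR-485-5p, which is known to act on presynaptic vesicle proteins, the medians were 637 and 772 CPM (log2FC 0.15 ± 0.32 SE, edgeR adjusted p = 0.776). miR-381-3p had medians of 8020 and 18700 CPM, with a log2FC of 0.34 ± 0.38 (SE; edgeR adjusted p = 0.549). The highest of the TG mice at 3 months had 580 CPM of miR-134-5p, 2300 CPM of miR-485-5p and 32300 CPM of miR-381-3p, above every TG mouse at 6 months in all 3 arms.

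None of the 6 miR-376 arms was called between ages in TG mice in the main edgeR fit, and the values of the 3p arms are given here. Of 35 other fits, 2 called miR-376a-3p, 2 called miR-376c-3p and 0 called miR-376b-3p. miR-376a-3p had a log2FC of -0.74 ± 0.33 (SE; edgeR adjusted p = 0.12) in TG mice, miR-376c-3p one of -0.49 ± 0.33 (SE; edgeR adjusted p = 0.309), and miR-376b-3p one of 0.10 ± 0.30 (SE; edgeR adjusted p = 0.859). miR-667-5p (log2FC -0.12 ± 0.23 SE, edgeR adjusted p = 0.731) and, at the far end, miR-410-3p (log2FC -0.35 ± 0.20 SE, edgeR adjusted p = 0.225) were not called in that fit either. miR-410-3p was called in 2 of the 35 other fits. The paper counts miR-667-5p among its compensatory miRs, taken from miRNAs lower at 6 than at 3 months in TG mice. It used DESeq2 with RUVSeq, and the numbers of TG mice in its legend for that comparison differ from the 9 and 11 used here. Over 35 other fits here the log2FC of miR-667-5p ran from -0.287 to 0.058. The abundant arms miR-379-5p (log2FC 0.15 ± 0.34 SE), miR-541-5p (log2FC 0.09 ± 0.25 SE), miR-300-3p (log2FC 0.28 ± 0.16 SE), miR-409-3p (log2FC 0.30 ± 0.32 SE), miR-411-5p (log2FC 0.27 ± 0.12 SE) and miR-485-3p (log2FC 0.09 ± 0.24 SE) had edgeR adjusted p values from 0.127 to 0.828.

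The 2 arms of a hairpin come from 1 precursor. Of 27 member hairpins with both arms tested in TG mice, the log2FC values had the same sign in 15 (55.6%) and opposite signs in 12, against 54.4% with the same sign over all 169 such pairs of arms. Many of these values were near 0, and mmu-mir-382 was the 1 member hairpin with both arms called. The ratio of the 5p to the 3p counts was tested for each hairpin with limma on the log2 ratio, where both arms had a mean of at least 20 counts. This left 23 member hairpins of 142. The ratio spanned the whole scale between hairpins, from a mean log2 ratio of -9.91 for mmu-mir-543, -9.04 for mmu-mir-300 and -6.34 for mmu-mir-410, where the 3p arm dominated, to 5.53 for mmu-mir-379, 6.09 for mmu-mir-134 and 10.25 for mmu-mir-541, where the 5p arm dominated. It was nearest to even for mmu-mir-376a, with a mean of -0.10.

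In TG mice the ratio rose between 3 and 6 months for 2 of the 23 member hairpins, mmu-mir-369 and mmu-mir-329, and fell for none. Among all 142 hairpins 20.4% were called. For mmu-mir-369 the log2 ratio was 0.75 ± 1.58 (SD, n = 9) at 3 months and 2.57 ± 1.22 (SD, n = 11) at 6 months, a difference of 1.82 ± 0.58 (SE; limma adjusted p = 0.0309). At 3 months the TG mice fell apart into mice 1, 2, 3 and 8, with log2 ratios from 1.98 to 2.82, and the other 5, with log2 ratios from -0.87 to -0.22. Only those 5 had more of the 3p than of the 5p arm, while all 11 mice at 6 months had more of the 5p arm. The WT mice at 3 months had log2 ratios of 2.53, -0.78, 0.65, 0.12 and 2.07 in mice 1 to 5, and their difference between ages was 1.37 ± 0.60 (SE; limma adjusted p = 0.232). For mmu-mir-329 the log2 ratio was 2.29 ± 0.38 (SD, n = 9) at 3 months and 2.83 ± 0.37 (SD, n = 11) at 6 months in TG mice, a difference of 0.54 ± 0.18 (SE; limma adjusted p = 0.0381). The difference in WT mice was 0.40 ± 0.24 (SE; limma adjusted p = 0.425). In WT mice between ages, and between genotypes at 3 and at 6 months, 0 member hairpins were called by limma (0% of all hairpins in each), with 3, 1 and 0 at an unadjusted p under 0.05.

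**Figure D4:**
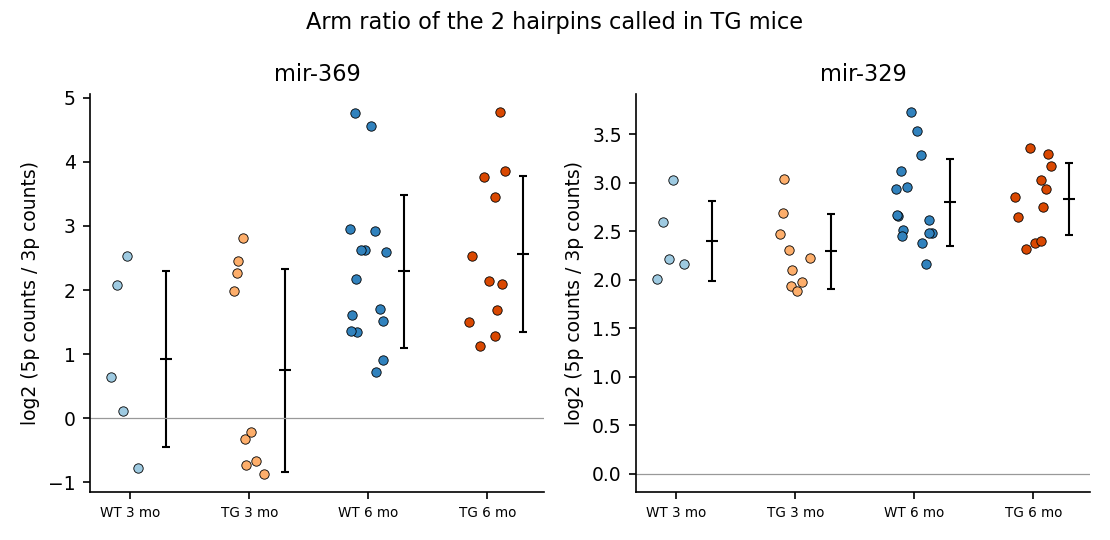
Log2 ratio of 5p to 3p counts of mir-369 and mir-329, with 1 point per mouse and the mean ± SD of each group beside it (n = 5, 9, 15 and 11 from left to right). For mir-369, 5 of the 9 TG mice of 3 months and 1 WT mouse of 3 months lie below 0, and no mouse of 6 months does.

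The 3p arm of mmu-mir-369 varied far more between mice than its 5p arm. miR-369-3p lay between 39.6 and 606 CPM in TG mice at 3 months, with a median of 298, and between 15.4 and 242 CPM at 6 months, with a median of 98.4. Its log2FC of -1.25 ± 0.53 (SE; edgeR adjusted p = 0.108) was the largest decrease among the members and was not called. Over 35 other fits it ran from -1.40 to -0.06, the latter with the spike-in factor, and 3 of them called it, DESeq2 without and with 1 and 2 RUVr factors. In WT mice it stood at 94.9, 572, 176, 270 and 160 CPM at 3 months, and between 16.2 and 340.5 CPM with a median of 159 at 6 months.

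This spread was shared by much of the cluster. Within every group, mice with more miR-381-3p had less miR-369-3p. In TG mice at 3 months miR-381-3p ranged from 4380 to 32300 CPM, and mice 1, 2, 3 and 8, with the most of it, were the 4 mice with the least miR-369-3p. The Pearson r of the log2 levels of this pair was -0.99 in the 9 TG and -0.996 in the 5 WT mice at 3 months, and -0.84 in the 11 TG and -0.94 in the 15 WT mice at 6 months. The pair was chosen for this pattern after its values were seen, and the values are a description.

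**Figure D5:**
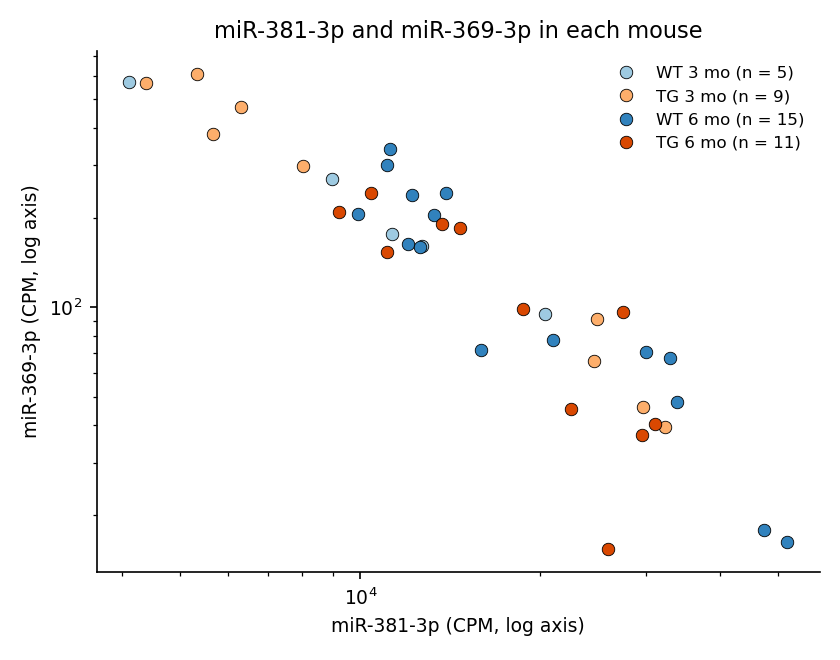
Level of miR-369-3p against that of miR-381-3p in each of the 40 mice, in CPM on log axes, coloured by group. The mice form a falling band in which all 4 groups overlap.

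Over all 40 mice, after the mean of each group was taken out, the correlations between pairs of the 66 arms ranged from -0.97 to 0.98, with a median of 0.13 and a middle range from -0.44 to 0.56. Of the pairs, 29.4% had an r over 0.5 and 22.6% an r under -0.5, against 18.4% and 17% over all 699 miRNAs. A single principal component held 66.9% of the within-group variance of the members. miR-299b-3p, miR-679-5p, miR-381-3p, miR-379-5p, miR-485-5p and miR-409-3p were at 1 end of it, and miR-369-3p, miR-494-3p, miR-154-3p, miR-1193-3p and miR-381-5p at the other. The 2 arms of mmu-mir-381 thus lay at opposite ends, but miR-381-5p averaged 0.908 CPM and had counts in only 33 of 40 libraries. Log2 levels were not scaled, so arms that varied more weighed more, among them low arms such as miR-299b-3p with a mean of 3.78 CPM. The GC content of the arm and its place on this component had a Pearson r of 0.36 over 63 arms, and the distance along the chromosome and that place had one of -0.15 over 66 arms.

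The component was not particular to the cluster. The first component of the other 633 miRNAs held 50.8% of their variance and ran along the same mice, with a Pearson r of 0.99 over 40 mice. Mice at the miR-381-3p end had fewer miRNA counts (Pearson r -0.73 with the log2 miRNA count of the library), a larger share of the spike-in oligos (0.71), more of the summed neuron (0.83), erythrocyte (0.86), vascular (0.61) and muscle markers (0.58), less of the summed microglia and immune markers (-0.64), and oligodendrocyte and choroid plexus markers that did not follow it (0.05 and 0.12). A sum over a list does not show whether its markers moved together. These values share libraries and depth, and their part in the differences between ages was not tested.

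Some marker miRNAs of other cell types were also called between ages in TG mice. These were 2 oligodendrocyte markers and 1 muscle marker lower at 6 months, both choroid plexus markers and 1 vascular marker higher, and 2 erythrocyte markers, miR-144-3p lower and miR-451a higher. Of the neuron markers 1, miR-128-3p, was called higher, and of the microglia and immune markers 0. The neuron markers did not move together. The log2FC was -0.66 for miR-124-3p, -0.69 for miR-137-3p, -0.57 for miR-153-3p and -0.17 for miR-9-5p, none of them called. For miR-138-5p, also not called, it was 0.12. The summed ranges overlapped for every list. The 3 oligodendrocyte markers summed to 1190 to 2310 CPM at 3 months and 743 to 1360 CPM at 6 months, the 4 vascular markers to 9580 to 16900 and 13200 to 21000 CPM, the 2 choroid plexus markers to 290 to 749 and 638 to 1020 CPM, and the 3 muscle markers to 622 to 1690 and 387 to 892 CPM. The 6 neuron markers summed to 166000 to 317000 CPM at 3 months and 197000 to 363000 CPM at 6 months, the 4 erythrocyte markers to 672 to 2610 and 969 to 2070 CPM, and the 4 microglia and immune markers to 230 to 354 and 257 to 666 CPM. No list had a marker with a median of 0. Of 42 spike-in oligos, which no mouse makes, 10 were called by the same edgeR test between ages in TG mice, and 0 in each other comparison of 2 groups.

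The hairpins upstream in the same region, from Meg3, the antisense of Rtl1 and Rian, are transcribed from the same chromosome. Of their 34 arms, 27 were tested between ages in TG mice, and 1 rose and 3 fell, 14.8% of those tested. Their median log2FC was -0.16, against 0.06 for the miR-379 to miR-410 arms, and the difference between the lists was not tested. In WT mice 0 of 28 were called.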

How the data were processed

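Per the labels and the paper's methods, the authors made libraries with the NEBNext Small RNA kit, trimmed 3′ adapters with cutadapt (version 2.8 in the submitters' processing notes), aligned reads to mm10 with mirdeep2, and deposited its raw counts for each mature miRNA and precursor, without normalization. The deposited RPM values equal these counts scaled to the library total, with a largest difference of 0.005. Each of 1978 mature miRNAs was represented by its precursor with the highest total, and the 52 spike-in oligos entered no main fit. Each comparison was fitted over all miRNAs with edgeR (version 4.0.16, R 4.3.3): filterByExpr (minimum count 10, minimum total 15), TMM and the robust quasi-likelihood F test. Levels are TMM-normalized CPM. Arm ratios were tested with limma (version 3.58.1) on log2 counts with a pseudocount of 0.5. Correlations used log2 CPM with a prior count of 2.

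Calls needed an absolute log2FC over 0.26 with an adjusted p under 0.05. Of 77 member arms, 66 passed the filter in at least 1 comparison and 11 in none, which are described by their counts only. Library totals ranged from 2656368 to 36547011 counts, and a floor of 3 counts covers counting error only. The members and lists were chosen with earlier results of these data known. Arms were named if called, among the 3 largest differences in each direction with a mean of at least 10 CPM, or among the 10 most abundant. Arms at an end of the cluster, or in a short list of arms known from neurons or named in the paper, were named too, and hairpins by their arm ratios. Replicate numbers recur across groups, but the mice differ. Nothing in the sources says how libraries were batched. Alternatives were DESeq2 (version 1.42.0), RUVr and RUVg factors computed from their definitions, other normalizations and filters, limma on RPM, and a replicate block. Others counted the mice whose title and genotype field differ as TG or left them out, or left out single mice. The tests were checked on simulated data.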

Additional observations from a re-analysis of the deposited data

Results flagged for a closer look

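Among 60 groups of mice examined for a value far from the rest, 4 were flagged, where chance flags about 1 in 20. miR-495-3p had 761 CPM in TG mouse 8 at 3 months, and the next highest of the 9 mice had 439 CPM. In WT mouse 2 at 3 months miR-541-5p was at 2410 CPM, miR-409-3p at 943 CPM and miR-667-5p at 9.56 CPM, against next lowest values of 3840, 1630 and 17.1 CPM among the 5 mice. This mouse is 1 of the 2 whose title and genotype field differ.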

How the results depend on the processing

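The arms miR-495-3p, miR-758-3p, miR-369-5p, miR-543-3p, miR-382-5p and miR-382-3p kept their call between ages in TG mice in all 35 other fits, with log2FC values for miR-495-3p from 0.92 to 1.18. miR-380-3p lost its call in 5 and miR-299a-3p in 19. edgeR and DESeq2 without factors called 8 and 9 members between ages in TG mice, 0 and 3 in WT mice, and 0 each between genotypes. With 1 and 2 RUVr factors DESeq2 called 27 and 29 in TG mice, 24 and 27 in WT mice, 1 and 8 between genotypes at 3 months, and 1 and 2 at 6 months. edgeR with 1 spike-in factor called 20 in TG and 1 in WT mice. Leaving out single mice gave 7 to 11 calls in TG mice and 0 to 1 in WT mice. The share of all miRNAs called is given above for only some of these fits. The other counts are not read as particular to the cluster. The cause was not tested.

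Same-numbered mice did not deviate together in every pair. Over 9 pairs of TG mice the correlations ran from -0.57 to 0.73, with a mean of 0.254 and 7 pairs over 0.1. Between genotypes the mean was 0.31 at 6 months, with 9 of 11 pairs over 0.1, and 0.01 at 3 months, with 2 of 5. Over 5 pairs of WT mice the correlations ran from -0.507 to 0.405, with a mean of 0.023. The replicate block joins different mice that share a number, and the sources do not say whether they share anything else. With it, 29 member arms and 9 arm ratios were called between ages in WT mice, where 0 were called without it. The shares over all miRNAs and hairpins are not given for this fit, and these counts are not read as a result about the cluster. The block turned the log2FC of miR-134-5p to 0.029 and of miR-667-5p to 0.058 in TG mice, of miR-299a-3p to 0.23 and miR-380-3p to -0.23 in WT mice, and of miR-369-3p to 0.016 and of miR-154-5p to 0.019 between genotypes at 6 months.

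No reversal concerned a called difference; miR-299a-3p and miR-380-3p are called in TG mice and turned in WT mice. The spike-in factor turned the log2FC between ages in TG mice to -0.19 for miR-379-5p, -0.13 for miR-541-5p, -0.12 for miR-485-5p, -0.10 for miR-485-3p and 0.12 for miR-376c-3p, and to -0.057 for miR-679-5p in WT mice. It turned the differences between genotypes to -0.44 for miR-679-5p and -0.046 for miR-379-5p at 3 months, and to 0.13 for miR-369-3p and 0.024 for miR-154-5p at 6 months. Over the fits that each left out 1 of the 20 TG mice, the log2FC between ages ran from -0.00123 to 0.414 for miR-379-5p, from -0.194 to 0.07 for miR-134-5p, from -0.211 to 0.057 for miR-667-5p and from -0.042 to 0.212 for miR-376b-3p. For miR-299a-3p it ran from -0.155 to 0.00394 over those that left out 1 of the 5 WT mice at 3 months. miR-376b-3p was at -0.023 with WT mice 1 and 2 counted as TG.

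As a share of all counts, summed over precursors, the cluster took 3.05% in TG and 3.24% in WT mice at 6 months and 2.70% and 2.67% at 3 months. With spike-in oligos in the total the shares were 3.05%, 3.23%, 2.70% and 2.66%. Both use a larger total. Depth limits low arms most in the 2 shallowest libraries, where 3 counts stand for 2.1 and 2.32 CPM.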
